A study of Mus musculus with 12 samples.

Results

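The Obox genes are a cluster of homeobox genes on mouse chromosome 7 whose transcripts are best known from oocytes and the first cleavage stages. Rows of the deposited array table were taken as members where the Gene Symbol column holds a symbol made of Obox and a number. This gave 7 probe sets of 22206: 6 with a single symbol (Obox1, Obox2, Obox3, Obox5, Obox6 and Obox7) and 1 annotated to both Obox8 and Gm5585, which is called the Obox8/Gm5585 probe set because its signal cannot be given to one gene. Whole-embryo RNA had been hybridised to 12 arrays of the Clariom S Mouse type, which measure well-annotated genes through probes in their exons. The groups, in order of age, were pronuclear embryos (E0.5), 2-cell embryos (E1.5) and morulae (E2.5), with 2 arrays each, and E10.5 and E16.5 embryos, with 3 arrays each. E0.5 is the day of the vaginal plug after superovulation and natural mating. The early arrays hold pools of embryos, with the number per pool not given in the labels, and each late array holds 1 embryo. The labels give neither strain nor genotype, and they do not say which mothers the pools and embryos came from. A p-value here therefore rests on how far these particular samples differ, which may be technical.

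Homeobox genes encode transcription factors that bind DNA through a homeodomain. The OBOX proteins belong to the paired-type class and are relatives of CRX and OTX, factors known from the eye and the head. In the mouse, loss of maternal and zygotic Obox genes together is known to disturb activation of the embryonic genome at the 2-cell stage, when transcripts stored in the egg are replaced by those of the embryo. Genes of the cluster are therefore often divided by whether their transcripts are already stored in the egg or appear with genome activation.

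All signals are on the log2 scale on which the authors deposited them, and all changes are differences in log2 units, which are not calibrated as folds of RNA. Signals of 1404 olfactory and vomeronasal receptor genes served as a gauge of background. Their 95th percentile was 5.85 for the pronuclear, 6.36 for the 2-cell, 6.10 for the morula, 5.38 for the E10.5 and 5.24 for the E16.5 stage, and a stage mean at or under it is said to be within the receptor range. Array medians lay between 6.19 and 6.59, and with 2 or 3 arrays a stage, precision is limited by their number. By this gauge 5 members were above the receptor range in pronuclear embryos (Obox1, Obox2, Obox3, Obox5 and Obox7) and are called maternal. Obox6 and the Obox8/Gm5585 probe set were within it there and above it in 2-cell embryos, and are called 2-cell members. This division describes the values and is not a test.

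The members lie within 1508 kb. On mm10 and counted from 1, Obox8/Gm5585 is annotated at chr7:14331436-14333557 on the minus strand and Obox7 at chr7:14659496-14665996 on the plus strand. Obox2 follows at chr7:15388721-15398545 (plus strand), Obox1 at chr7:15512340-15556866 (plus strand), Obox5 at chr7:15750134-15759800 (plus strand) and Obox6 at chr7:15833246-15839679 (minus strand). The Obox3 probe set spans 160078 bases, chr7:15479825-15639902 on the minus strand, while the RefSeq gene Obox3 occupies only chr7:15625306-15639777. Its annotated span contains that of Obox1 on the other strand and overlaps 3 Obox pseudogenes. In all, 45 Obox pseudogenes of the RefSeq table lie within the cluster. Whether the probes tell the members from one another and from these pseudogenes was not tested, so members with similar values may not be separately measured genes.

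RefSeq promoter windows of GRCm38.p6, 250 bases before to 50 bases after the annotated start, were found for 5 of the 7 members, the maternal ones. They are shown because these 5 windows share sequence with each other. The longest run present in all 5 had 25 bases and occurred in no other of the 32851 windows of the table. Capitals mark this run and, further along, the element TATATAA. Each line starts 60 bases before the run and ends 80 bases after it, or at the end of the window for Obox2. They lie at chr7:15547099-15547263 (Obox1), chr7:15388790-15388900 (Obox2), chr7:15750200-15750364 (Obox5) and chr7:14659564-14659728 (Obox7) on the plus strand, and at chr7:15639782-15639946 (Obox3) on the minus strand, all written 5′ to 3′ on the gene's strand.
Obox1: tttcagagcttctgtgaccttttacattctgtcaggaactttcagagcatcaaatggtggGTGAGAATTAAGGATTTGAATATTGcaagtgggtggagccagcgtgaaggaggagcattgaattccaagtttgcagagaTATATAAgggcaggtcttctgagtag
Obox2: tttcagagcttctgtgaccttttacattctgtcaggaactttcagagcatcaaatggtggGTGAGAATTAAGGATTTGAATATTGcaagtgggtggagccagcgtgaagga
Obox5: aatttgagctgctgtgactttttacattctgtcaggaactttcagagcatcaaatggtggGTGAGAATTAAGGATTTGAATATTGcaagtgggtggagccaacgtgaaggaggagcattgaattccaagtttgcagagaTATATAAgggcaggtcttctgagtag
Obox7: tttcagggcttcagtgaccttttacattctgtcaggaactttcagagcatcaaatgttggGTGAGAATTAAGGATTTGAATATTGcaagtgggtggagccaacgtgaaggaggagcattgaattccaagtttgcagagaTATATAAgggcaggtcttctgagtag
Obox3: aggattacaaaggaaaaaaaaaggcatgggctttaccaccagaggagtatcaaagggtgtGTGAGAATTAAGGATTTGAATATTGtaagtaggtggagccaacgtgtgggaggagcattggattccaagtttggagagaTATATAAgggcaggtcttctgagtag

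The Obox3 window parted from the others on the upstream side of the shared run. Of the 60 bases before the run, 21 in Obox3 were the same as in Obox1 at the same distance, against 60 in Obox2, 54 in Obox5 and 57 in Obox7. Of the 80 bases after it, 73 in Obox3, 79 in Obox5 and 79 in Obox7 were the same as in Obox1, as were all 26 that the Obox2 window holds. In local alignments the Obox1 and Obox2 windows were identical over 203 bases, and Obox5 and Obox7 shared 97.1% of 273 aligned columns. The windows of Obox3 and Obox1 aligned over 164 columns, with 93.3% identity. TATATAA, searched on both strands, was found in 4 of the 5 windows and in 3.24% of all windows. The Obox2 window ends before the place where the others hold it, because its annotated start lies further upstream. GGATTA, a core of the motif known for CRX and OTX, occurred on either strand only in the Obox3 window among the 5, and in 7.06% of all windows. CANNTG, the E-box, was found in the windows of Obox1, Obox2, Obox5 and Obox7 and not in that of Obox3, and in 72.3% of all windows. The motifs were chosen with the sequences in view, and a match is a description and not a binding site.

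Obox1, Obox2 and Obox7 were highest in pronuclear embryos. Obox1 had signals of 16.22 and 16.08 on the pronuclear arrays, 15.14 and 15.00 on the 2-cell arrays, 5.91 and 6.61 on the morula arrays, 4.02, 3.12 and 3.39 on the E10.5 arrays and 3.37, 3.24 and 4.08 on the E16.5 arrays. The 3 early stages did not overlap, and the late stages overlapped each other. Obox2 had 15.62 and 16.00 on the pronuclear arrays, 14.48 and 14.48 on the 2-cell arrays, 5.03 and 6.30 on the morula arrays, 3.41, 3.13 and 3.63 on the E10.5 arrays and 3.74, 3.86 and 3.61 on the E16.5 arrays. The order of its stages was that of Obox1. In morulae the mean of Obox1 lay 0.15 above the receptor range and that of Obox2 within it.

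Obox7 had signals of 12.98 and 12.68 on the pronuclear arrays, 10.20 and 9.98 on the 2-cell arrays, 7.05 and 6.48 on the morula arrays, 5.24, 6.09 and 5.81 on the E10.5 arrays and 5.77, 6.67 and 5.86 on the E16.5 arrays. Its 3 early stages did not overlap, and its morula arrays overlapped those of E16.5.

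Obox5 and Obox3 were also present in pronuclear embryos, but their highest stage mean was that of 2-cell embryos. Obox5 had signals of 17.31 and 17.43 on the pronuclear arrays, 17.79 and 17.76 on the 2-cell arrays, 7.12 and 7.67 on the morula arrays, 4.93, 5.30 and 5.34 on the E10.5 arrays and 4.95, 5.14 and 4.43 on the E16.5 arrays. Its pronuclear and 2-cell arrays did not overlap, yet the stages differed by less than the test required. The highest signal of any probe set on any array was 19.53. Obox3 had 12.55 and 12.79 on the pronuclear arrays, 14.30 and 14.19 on the 2-cell arrays, 6.15 and 5.73 on the morula arrays, 3.80, 4.13 and 4.49 on the E10.5 arrays and 3.58, 3.80 and 4.42 on the E16.5 arrays. It was thus the maternal member whose 2-cell signal exceeded its pronuclear signal in the test.

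Obox6, whose loss is known to leave mice viable, showed another pattern. It had signals of 5.24 and 4.98 on the pronuclear arrays, 13.42 and 13.23 on the 2-cell arrays, 12.52 and 12.46 on the morula arrays, 4.26, 4.31 and 4.64 on the E10.5 arrays and 4.42, 4.03 and 4.14 on the E16.5 arrays. It lay 6.39 above the receptor range in morulae, where none of the other 6 members lay more than 1.29 above it. The Obox8/Gm5585 probe set had 5.18 and 4.72 on the pronuclear arrays, 9.24 and 8.41 on the 2-cell arrays, 7.27 and 6.56 on the morula arrays, 3.81, 4.10 and 4.29 on the E10.5 arrays and 4.13, 4.23 and 3.72 on the E16.5 arrays. Its 5 stage means ran in the same order as those of Obox6, and for both the E10.5 and E16.5 arrays overlapped.

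**Figure D1:**
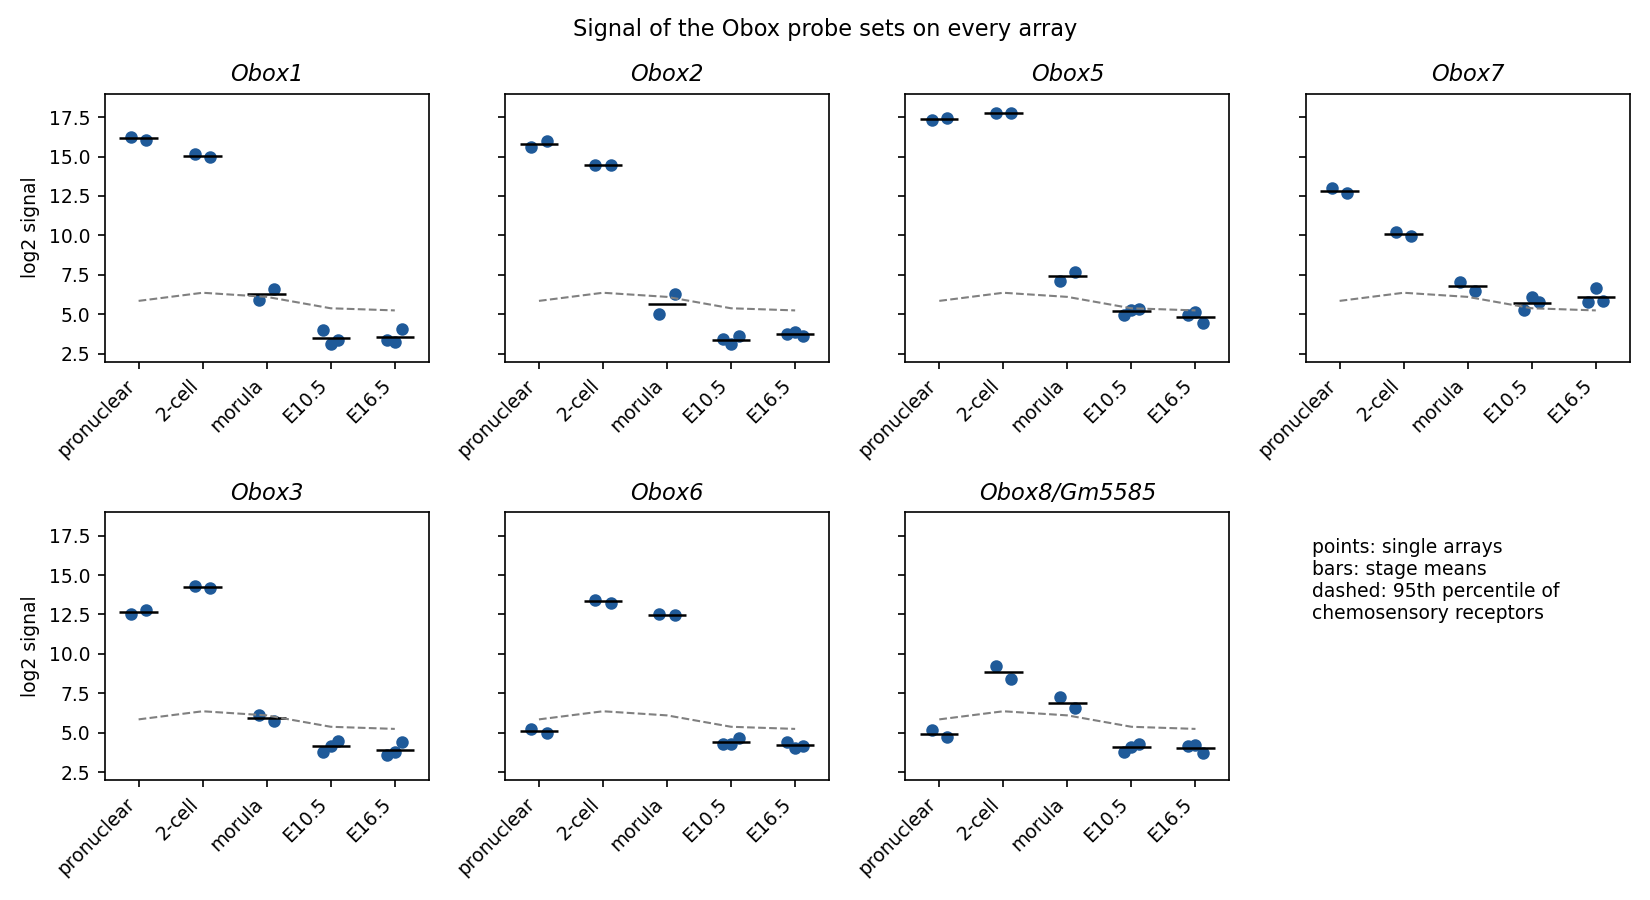
Log2 signal of each Obox probe set (vertical axis) on every array, by stage (horizontal axis), with bars at stage means and a dashed line at the 95th percentile of 1404 receptor genes. Obox1, Obox2, Obox5, Obox7 and Obox3 start far above the dashed line in pronuclear embryos, while Obox6 and Obox8/Gm5585 start below it and rise in 2-cell embryos.

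Between pronuclear and 2-cell embryos the family split in direction. In limma's test, with 1 model of the 5 stages and Benjamini-Hochberg adjustment over 21157 genes, 3 of 7 members rose, against 15.6% of all genes tested, and 3 fell, against 20.0%. Without pronuclear replicate 2, 3 rose and 1 fell. Obox6 had the largest change of the family and averaged 13.33 ± 0.14 in 2-cell embryos and 5.11 ± 0.18 in pronuclear embryos (SD, n = 2 each). It rose by 8.22 ± 0.28 (SE, adjusted p = 2.64e-11). The Obox8/Gm5585 probe set averaged 8.83 ± 0.59 in 2-cell embryos and 4.95 ± 0.33 in pronuclear embryos (SD, n = 2 each), and rose by 3.88 ± 0.36 (SE, adjusted p = 5.95e-07). Both started within the receptor range, so background limits the size of these rises. They were classed as 2-cell members by these same values, so their direction is no separate result. Obox3 rose by 1.57 ± 0.34 (SE, adjusted p = 0.00161) from a level well above the receptor range.

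Of the members that fell at this step, Obox7 averaged 10.09 ± 0.16 in 2-cell embryos and 12.83 ± 0.21 in pronuclear embryos (SD, n = 2 each). It fell by 2.74 ± 0.37 (SE, adjusted p = 2.73e-05). Obox2 averaged 14.48 ± 0.0036 in 2-cell embryos and 15.81 ± 0.27 in pronuclear embryos, and fell by 1.33 ± 0.36 (SE, adjusted p = 0.00915). With pronuclear replicate 2 left out the adjusted p of Obox2 was 0.0787, the highest over its alternatives (lowest 0.00176). Obox1 averaged 15.07 ± 0.099 in 2-cell embryos and 16.15 ± 0.097 in pronuclear embryos and fell by 1.08 ± 0.37 (SE, adjusted p = 0.0330). The Obox1 call did not hold when any 1 of the 4 arrays was left out: adjusted p was 0.131 without pronuclear replicate 1, 0.0872 without pronuclear replicate 2, 0.0768 without 2-cell replicate 1 and 0.115 without 2-cell replicate 2. With arrays centred on the upper quartile it was 0.0693 (range over the alternatives 0.0252 to 0.131). Obox5 differed by 0.40 ± 0.31 (SE, adjusted p = 0.368), which did not pass.

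From the 2-cell stage to the morula every member fell: 7 of 7 passed downward, against 20.0% of all genes tested. Their median change was -8.30, beside 0.11 over all genes. The fall was largest for Obox5, which averaged 7.40 ± 0.39 in morulae and 17.77 ± 0.025 in 2-cell embryos (SD, n = 2 each). Obox2 averaged 5.66 ± 0.89 in morulae and fell by 8.81 ± 0.36 (SE, adjusted p = 1.08e-10). Obox1 averaged 6.26 ± 0.50 in morulae and fell by 8.81 ± 0.37 (SE, adjusted p = 1.29e-10). Obox3 averaged 5.94 ± 0.30 in morulae, and, like Obox2, ended within the receptor range.

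The remaining members fell by less at this step. Obox7, already lower in 2-cell embryos, fell by 3.33 ± 0.37 (SE, adjusted p = 2.91e-06). The Obox8/Gm5585 probe set averaged 6.92 ± 0.50 in morulae and 8.83 ± 0.59 in 2-cell embryos, and fell by 1.91 ± 0.36 (SE, adjusted p = 0.000453). Obox6 averaged 12.49 ± 0.043 in morulae and 13.33 ± 0.14 in 2-cell embryos and fell by 0.84 ± 0.28 (SE, adjusted p = 0.0250). The Obox6 call did not hold in several alternatives, over which its adjusted p ranged between 0.0164 and 0.111. Leaving out 1 array gave 0.111 (2-cell replicate 1), 0.0648 (morula replicate 1) and 0.0834 (morula replicate 2). Centring on the upper quartile gave 0.0948, fitting these stages alone 0.0875 and fitting the 6 pronuclear, 2-cell and morula arrays 0.056.

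Set against pronuclear embryos, morulae held less of the 5 maternal members and more of both 2-cell members. Of the 7 members 2 rose, against 23.8% of all genes tested, and 5 fell, against 23.9%. The changes were -10.14 ± 0.36 for Obox2, -9.98 ± 0.31 for Obox5, -9.89 ± 0.37 for Obox1, -6.73 ± 0.34 for Obox3 and -6.06 ± 0.37 for Obox7 (SE, adjusted p at most 2.26e-09). Obox6 rose by 7.38 ± 0.28 (SE, adjusted p = 1.62e-11) and the Obox8/Gm5585 probe set by 1.97 ± 0.36 (SE, adjusted p = 0.000255). This comparison shares its arrays with the previous ones and is not independent of them. The maternal and 2-cell classes were set by the same pronuclear values. That favours these directions, so the changes are no test of the division.

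At E10.5 and E16.5 the mean of every member was below its morula mean, though Obox7 at E16.5 did not pass against morulae. Between E10.5 embryos and morulae 7 of 7 fell, against 26.7% of all genes tested. Obox2 and Obox3 were already within the receptor range in morulae, and Obox1 lay only 0.15 above it. The 95th percentile of the receptors was itself lower at E10.5 (5.38) than in morulae (6.10), so these falls may not be losses of transcript. Obox6 averaged 4.40 ± 0.21 at E10.5 (SD, n = 3) and 12.49 ± 0.043 in morulae (SD, n = 2), and fell by 8.08 ± 0.25 (SE, adjusted p = 2.63e-12). The other 6 changed by -2.85 to -1.05. Obox7 averaged 5.71 at E10.5 and 6.76 in morulae and fell by 1.05 ± 0.34 (SE, adjusted p = 0.0163). Its adjusted p was 0.158 when morula replicate 1 was left out and 0.0769 when E10.5 replicate 1 was. With arrays centred on the receptor median the Obox7 change was -0.57 (adjusted p = 0.145, range over its alternatives 0.00249 to 0.158). RNA of whole embryos was measured, so fewer cells of a type and less RNA per cell cannot be told apart. The file headers give the early and the late arrays different dates, so for this step date and stage cannot be told apart.

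At E10.5 and E16.5 the arrays of every member overlapped. None of 7 passed in limma's test of E16.5 against E10.5 (0 also at an unadjusted p under 0.05), against 37.8% of all genes tested. In the order of each member's stage means, the other neighbouring stages passed as different except pronuclear and 2-cell embryos for Obox5, and E16.5 embryos and morulae for Obox7 (-0.66 ± 0.34, SE, adjusted p = 0.106). These neighbours included E16.5 embryos against morulae, where 6 of 7 members fell, against 29.8% of all genes tested, and E10.5 against pronuclear embryos, where 7 of 7 fell, against 27.1%. Obox6 fell by 0.70 ± 0.25 (SE, adjusted p = 0.0281) between E10.5 and pronuclear embryos, both within the receptor range. Obox2 and Obox3 were within the range in morulae as well as at E16.5. At both late stages 6 members lay within the receptor range, and Obox7 lay 0.33 above it at E10.5 and 0.86 above it at E16.5. Over the 5 stages all 7 members passed limma's F test (adjusted p at most 6.30e-09), as did 78.9% of all genes tested.

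**Figure D2:**
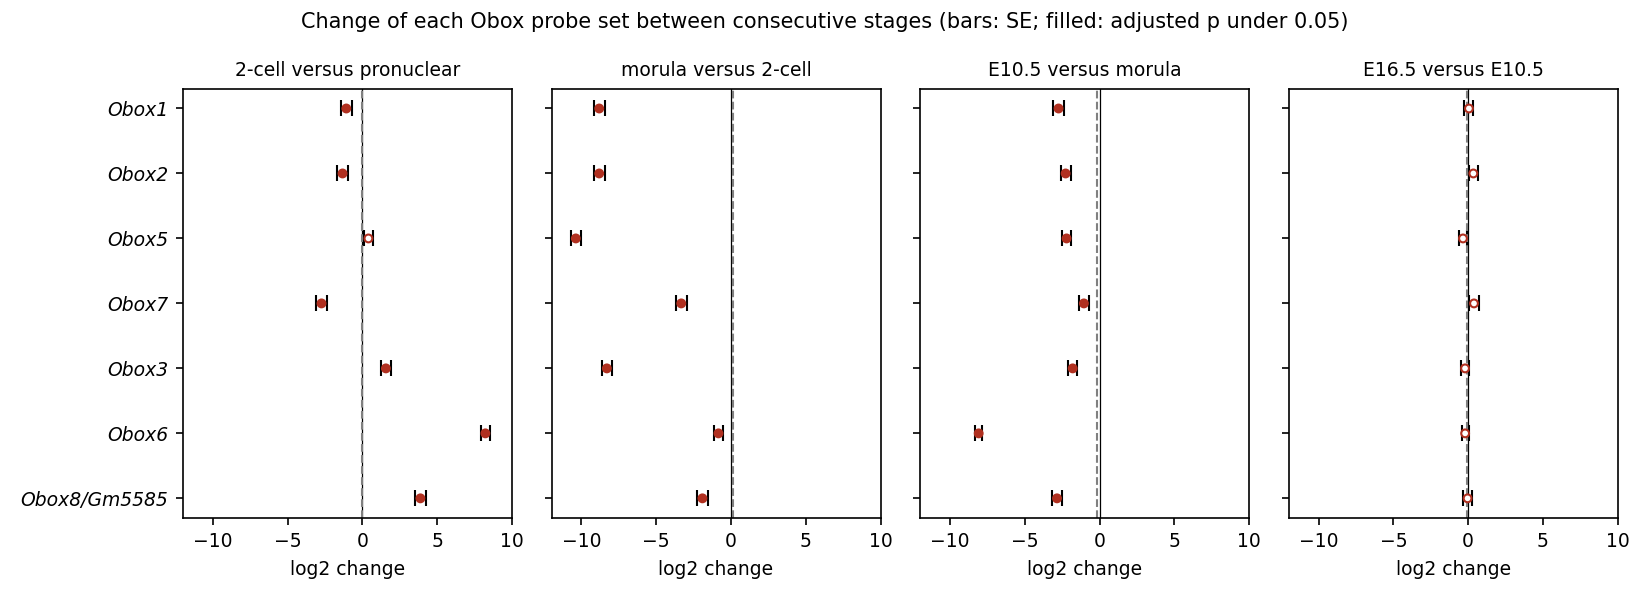
Log2 change of each Obox probe set (horizontal axis) between consecutive stages, with the standard error as bars, filled points where the adjusted p is under 0.05 and a dashed line at the median of all 21157 genes. The members divide to both sides of 0 between pronuclear and 2-cell embryos, all lie below 0 in morulae against 2-cell embryos and in E10.5 embryos against morulae, and none is filled in E16.5 against E10.5 embryos.

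Likeness of profile was measured as the root mean square difference over the 12 arrays, after each gene was centred on its own mean. Among the members Obox1 and Obox2 were the closest pair (0.45), followed by Obox1 and Obox5 (0.69) and Obox2 and Obox5 (0.75). Obox3 lay 1.38 from Obox2 and 1.47 from Obox1. Obox6 was at least 2.30 from every other member, with the Obox8/Gm5585 probe set the nearest. Obox1 and Obox2 also share the longest identical promoter run, shown above, and whether the closeness of their signals reflects probes that read both was not tested.

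Genes outside the family with similar profiles were ranked in the same way, leaving out provisional names and chemosensory receptors. Obox1 was nearest to Bmp15, an oocyte growth factor (0.46), Oosp3, an oocyte secreted protein gene (0.49), and Accsl (0.55). Obox2 was nearest to Accsl (0.45), Bmp15 (0.59) and Pkd2l2 (0.66). Obox5 was nearest to Oog3 (0.35), Btg4, which directs decay of maternal mRNA (0.37), and Oosp3 (0.58). For Obox7 the nearest were Lhb, the beta subunit gene of luteinizing hormone (0.44), Samd7 (0.45) and D6Ertd527e (0.46).

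For Obox3 the nearest gene was Tcl1b5, of the Tcl1 cluster of oocyte genes (0.39), which averaged 15.10 in 2-cell embryos and 13.46 in pronuclear embryos, followed by Cox6b2 (0.59) and Bcl7c (0.63). The neighbours of Obox6 were less close: Fthl17f (0.70) and Fthl17d (0.74), ferritin-like genes of the X chromosome, and Gabarapl2, an autophagy gene (0.82). Obox6 averaged more in 2-cell embryos than in morulae, a difference whose call did not hold in several alternatives. All 3 of these genes averaged more in morulae, and whether they differ from Obox6 in this was not tested. The Obox8/Gm5585 probe set was nearest to Pramef6 (0.33), Tbcc, a tubulin folding cofactor gene (0.35), and Smim4 (0.36).

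**Figure D3:**
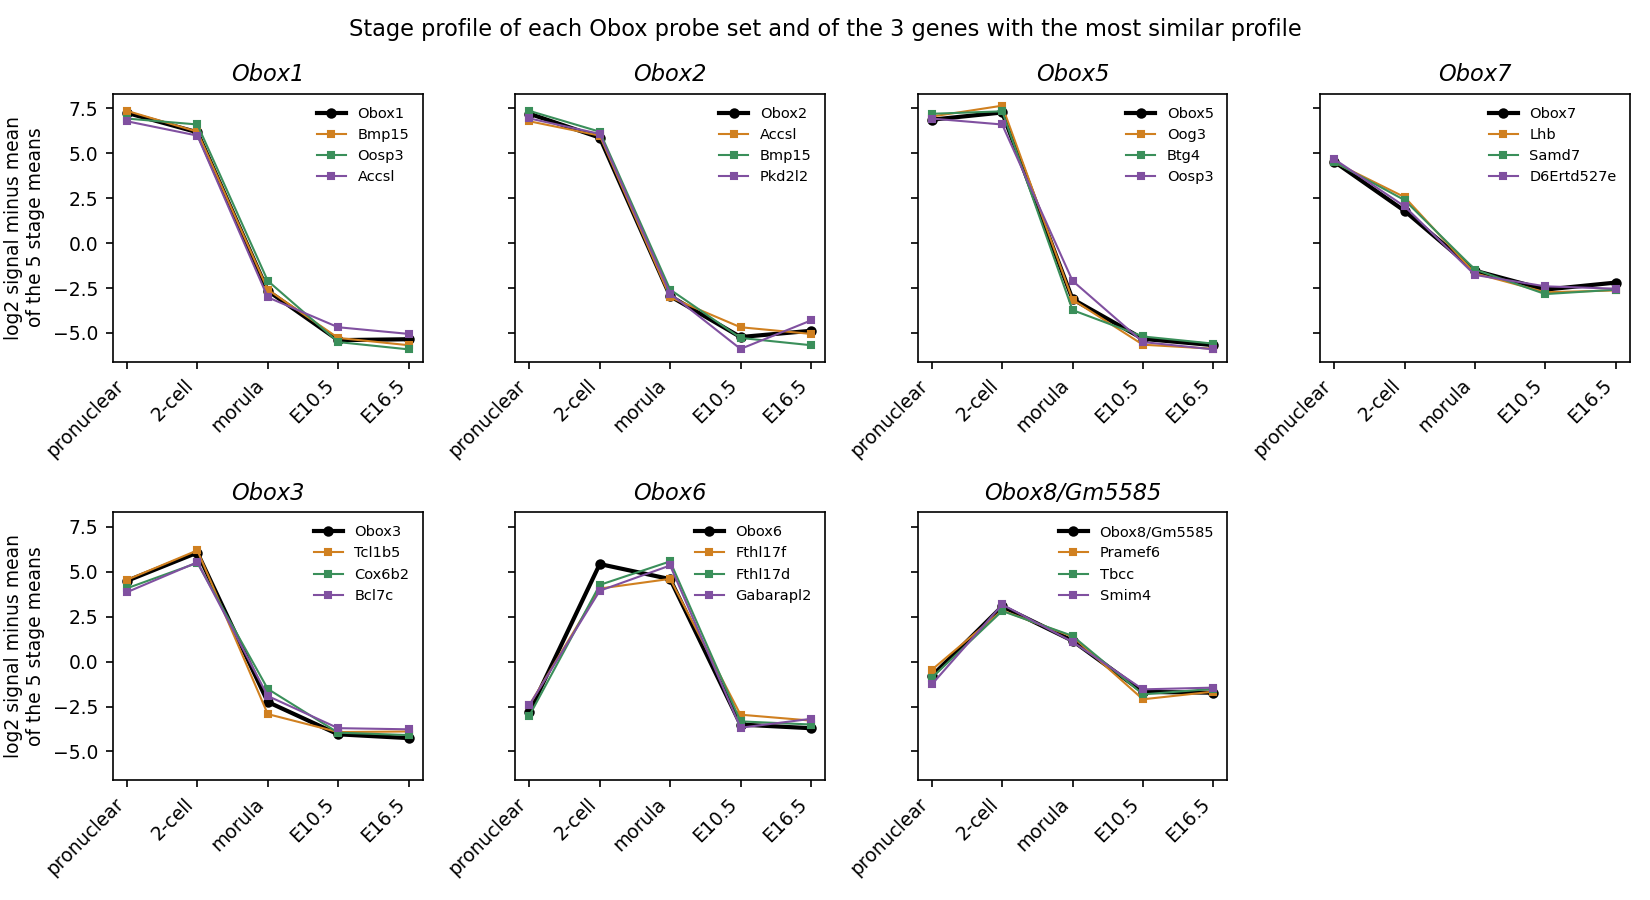
Stage means of each Obox probe set (black) and of the 3 genes with the smallest root mean square difference (colours), each minus the mean of its own 5 stage means, in log2 units, by stage. The lines of Obox5, Oog3 and Btg4 nearly coincide, while Fthl17f, Fthl17d and Gabarapl2 reach their peak in morulae and Obox6 in 2-cell embryos.

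Of the genes that lie among the members on the chromosome, those with a probe set of their own had stage means within the receptor range. Sult2a8 and Sult2a7, sulfotransferase genes, had means within it at all 5 stages, although 1 E16.5 array of Sult2a8 read 5.54. So did Sult2a6, the nearest named gene on the side of Obox8/Gm5585, and Vmn1r90. As a vomeronasal receptor gene, Vmn1r90 is itself part of the gauge that sets the range. A probe set annotated to Vmn1r90, Nlrp5-ps and Vmn1r181 together was above the range at every stage but E10.5, with means of 10.20 for the pronuclear, 11.15 for the 2-cell, 8.52 for the morula, 5.30 for the E10.5 and 6.75 for the E16.5 stage. On the side of Obox6 the next gene is Crx, the photoreceptor homeobox gene, at chr7:15865947-15879968, which stayed within the receptor range at all 5 stages (3.70 to 4.71). Beyond it, at chr7:15882617-15904030, lies Crxos, another homeobox gene of early embryos. Crxos averaged 4.90 ± 0.48 in pronuclear embryos, 9.47 ± 0.0023 in 2-cell embryos and 13.42 ± 0.19 in morulae (SD, n = 2 each). It thus rose at both steps, by 4.58 ± 0.36 (SE, adjusted p = 1.26e-07) and by 3.95 ± 0.36 (SE, adjusted p = 3.81e-07). Obox6 averaged less in morulae than in 2-cell embryos, a fall whose call did not hold in several alternatives.

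**Figure D4:**
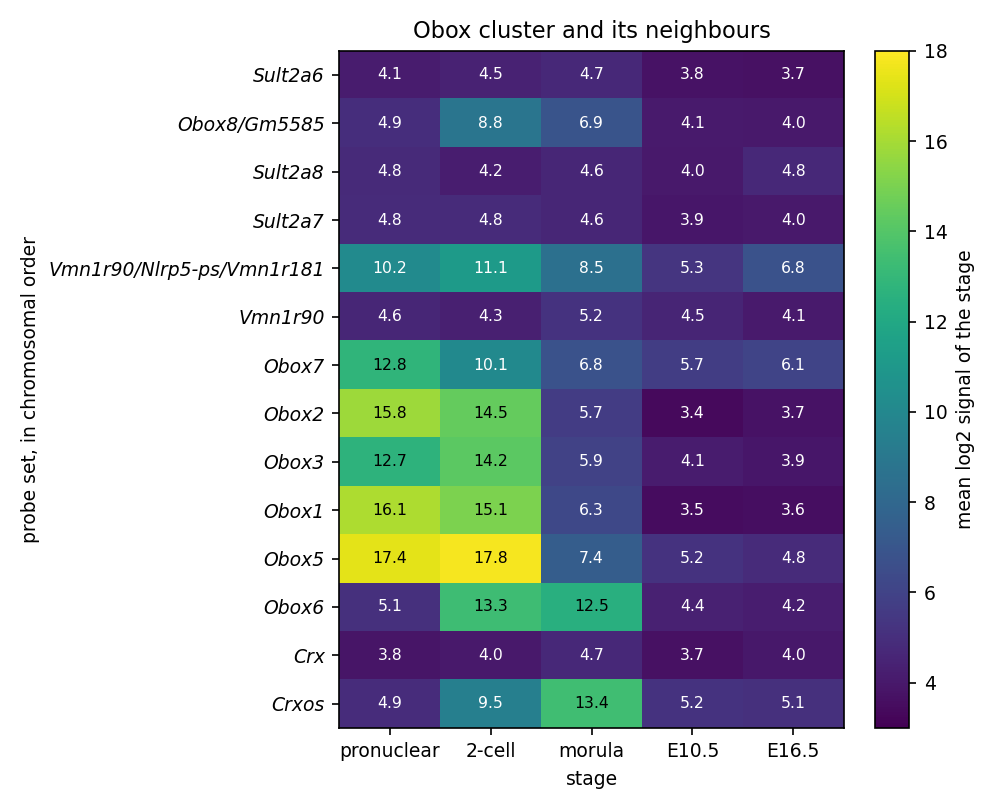
Mean log2 signal of each stage (columns, colour and printed value) for the Obox probe sets and their neighbours in chromosomal order (rows). Levels can be compared along a row and not between rows, since probe sets differ. The Sult2a genes and Crx stay dark at all stages, the maternal Obox rows are bright in the first 2 columns, and Obox6 and Crxos are bright in morulae.

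Among 45 measured paired-type homeobox relatives outside the family, 6 rose and 4 fell between pronuclear and 2-cell embryos, with a median change of 0.04, beside -0.03 over all genes. Of all genes tested 15.6% rose and 20.0% fell at this step. Hesx1, known from forebrain and pituitary development, rose by 3.87 ± 0.33 (SE, adjusted p = 2.45e-07). Nobox, an oocyte homeobox gene needed for follicle growth, averaged 9.72 in 2-cell embryos and 12.07 in pronuclear embryos and fell by 2.35 ± 0.35 (SE, adjusted p = 7.97e-05). Between 2-cell embryos and morulae 9 rose and 7 fell (median 0.19, beside 0.11 over all genes), while 20.0% of all genes tested rose and 20.0% fell. Sebox, a maternal effect homeobox gene, averaged 4.83 in morulae and 12.32 in 2-cell embryos and fell by 7.49 ± 0.31 (SE, adjusted p = 1.14e-10), as the maternal Obox members did, and Rhox5 rose by 6.71 ± 0.32 (SE, adjusted p = 4.08e-10).

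The lists of genes nearest to the members by role are set beside the same shares of all genes tested, 15.6% up and 20.0% down from pronuclear to 2-cell embryos, and 20.0% each way from 2-cell embryos to morulae. Of 43 measured 2-cell activation genes, 37 rose and 5 fell between pronuclear and 2-cell embryos (median 5.36), and 6 rose and 29 fell between 2-cell embryos and morulae (median -3.21). Of 56 measured maternal oocyte transcripts, 9 rose and 33 fell at the first step (median -1.71), and 2 rose and 51 fell at the second (median -5.39). Obox6 fell by 0.84 at the second step, a fall whose call did not hold in several alternatives. Zfp352, a 2-cell zinc finger gene, had the largest passing fall of the 43 activation genes there (6.55 ± 0.49, SE, adjusted p = 4.88e-08). Of those 43, 8 did not pass at that step. Of 57 oocyte and genome activation regulators, 18 rose and 16 fell at the first step, Dppa4 with the largest rise (5.60 ± 0.28, SE, adjusted p = 1.27e-09 by limma), and 14 rose and 18 fell at the second.

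Markers of other cells that early samples could hold were also read. Of 21 cumulus and granulosa cell markers 12 lay above the receptor range in pronuclear embryos, 7 in 2-cell embryos and 5 in morulae. Their mean lay between 6.76 and 6.82 on the pronuclear arrays, between 6.42 and 6.48 on the 2-cell arrays and between 5.48 and 5.52 on the morula arrays. The range itself differed between these stages (95th percentiles of 5.85, 6.36 and 6.10), so the counts above it depend on that too. Of the 21, 2 rose and 6 fell between pronuclear and 2-cell embryos, against 15.6% and 20.0% of all genes tested. Amhr2, the receptor gene for anti-Müllerian hormone, had the largest rise and averaged 11.77 in 2-cell embryos and 7.31 in pronuclear embryos. Inha, an inhibin subunit gene, had the largest fall and averaged 7.38 in 2-cell embryos and 11.03 in pronuclear embryos. The means of Amh, Foxl2, Fshr, Cyp19a1 and Lhcgr were within the receptor range at all 5 stages. In pronuclear embryos Hsd3b1 (13.48), Tnfaip6 (11.28), Vcan (10.35) and Ptgs2 (9.34) were among the 12 above the range. Of 13 sperm markers 2 lay above the range in pronuclear embryos, 3 in 2-cell embryos and 1 in morulae. The 2 in pronuclear embryos were Odf2 (10.2) and Prm2 (9.8), while Prm1, Tnp1 and Tnp2 were within the range throughout. The mean of the sperm list lay between 5.33 and 5.71 on the pronuclear arrays, 5.21 and 5.33 on the 2-cell arrays, and 4.95 and 5.14 on the morula arrays. The part of such cells in the Obox values was not tested.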

How the data were processed

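Signals of 12 arrays were analysed. The authors deposited gene-level log2 signals made by SST-RMA, per the file headers, with the Transcriptome Analysis Console, per the submitters' processing notes, and an annotation on mm10. SST-RMA corrects background and normalises between arrays, so levels are relative to the other genes of an array. Of 22206 probe sets, 21367 name 1 gene, 836 several and 3 none. The brightest probe set was kept for each gene, and the Obox8/Gm5585 probe set was added, giving 21157 genes. The p-values and FDR of the authors' F test stand in the same deposited table and were used only for the closing observations.

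Stage means were fitted in 1 model over all arrays with limma 3.58.1 (lmFit and eBayes, R 4.3.3), which was tested on simulated data. Adjusted p is Benjamini-Hochberg over all 21157 genes for each comparison, with a threshold of 0.05, and all adjusted p-values come from limma. Alternatives changed the variance prior, normalisation, scaling, filter, threshold, arrays fitted and replicate block, and left out each array in turn. Adjusted p ranges are over these. Deviations of same-numbered replicates correlated between -0.11 and 0.046, with few arrays a stage to judge by. Members, gene lists and tests were chosen with earlier results of these data known. Genes named with a change come from the 2 largest rises and 2 largest falls of each list (for cumulus and sperm markers, at most 2 in all). Markers named as within or above the receptor range were picked after their values were seen. Profile neighbours are the 3 nearest genes. Promoter sequences are from RefSeq (GRCm38.p6), which matched 6 of 7 members by symbol, and windows were aligned with Biopython 1.88.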

Additional observations from a re-analysis of the deposited data

How the results depend on the processing

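The total of Obox members called in each comparison stayed within 1.5 times in all 139 alternative values, and no called change turned direction. By direction, the members that fell between 2-cell and pronuclear embryos numbered 1 without pronuclear replicate 2, in place of 3. Calls of single members were lost in 19 of 826 alternative values, and the cause was not tested. The 826 include uncalled changes, which had no call to lose. They also include settings that leave a change as it was, such as another threshold or an array left out of a stage not compared. In those settings a change could not turn direction. Between 2-cell and pronuclear embryos the losses were 6 of 24 for Obox1 and 1 of 24 for Obox2. They were 8 of 24 for Obox6 between morulae and 2-cell embryos and 4 of 23 for Obox7 between E10.5 embryos and morulae. Direction turned only among uncalled changes of E16.5 against E10.5: Obox5 was 0.0914 after cyclic loess, and Obox8/Gm5585 was 0.0748 centred on the receptor median and 0.0961 centred on the upper quartile. With 1 array left out, Obox8/Gm5585 lay between -0.1695 and 0.1118 and Obox1 between -0.2076 and 0.3066 in that comparison. Over all genes, the share of calls that were upward was 67.47% with receptor centring against 48.61% for E10.5 against morula. For morula against pronuclear it was 39.32% with receptor and 64.75% with upper quartile centring, against 49.85%. Receptor centring shifted the median of all genes by 0.48 for E10.5 against morula, and upper quartile centring by 0.41 for morula against pronuclear. With the replicate number as a block, 7180 genes were called between 2-cell and pronuclear embryos in place of 7532, and 6 of 7 Obox members, as without it. Deviations of same-numbered arrays correlated between -0.11 and 0.046 over 21 pairs, and 2 of 3 E10.5 arrays were closest to their own number at E16.5. The 2 arrays of an early stage deviate as mirror images, so between early stages both replicate numbers give the same value. The 21 pairs are therefore not separate checks. Signals within the receptor range limit the size of any change there.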

Other observations

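The authors' deposited table also holds a flag for expression at each stage, with a rule not given in the sources used here. In the authors' deposited table all 7 Obox probe sets were flagged as expressed in pronuclear embryos, 2-cell embryos and morulae. This included Obox6 and Obox8/Gm5585 in pronuclear embryos, where their mean signals of 5.11 and 4.95 lay within the receptor range of 5.85. At E10.5 and E16.5 the authors' deposited table flagged Obox5, Obox7 and Obox8/Gm5585 as expressed and Obox1, Obox2, Obox3 and Obox6 as not. Of the members flagged as expressed at E10.5, Obox8/Gm5585 averaged 4.07 and Obox5 5.19 there, both within the receptor range of 5.38. The false discovery rate of the F test in the authors' deposited table was at most 6.97e-09 for the 7 members.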
